A study of Arabidopsis thaliana and Hordeum vulgare and Setaria italica with 13 samples.

Results

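The threonine tRNAs of plant seedlings were followed as 4 anticodon families, ThrAGT, ThrCGT, ThrGGT and ThrTGT, named by amino acid and anticodon in DNA letters. They are 4 of the 52 families of a table of tRNA-seq percentages, and 22 of the 532 sequence entries of 5 YAMAT-seq libraries. In the tRNA-seq table the members were its rows with these names. In YAMAT-seq they were the A. thaliana entries with these names and the grass entries with these anticodons in the loop of the sequence. The study holds 13 libraries from seedlings of 7 species, 8 made by tRNA-seq (a small RNA library of RNA pretreated for tRNAs and their fragments) and 5 by YAMAT-seq (a Y-shaped adapter joined at the CCA end, which favours full-length mature tRNAs). All plants were untreated, 10 days old and raised in soil under 16 h light and 8 h dark at 23 ºC. No mutant or transgene was compared. The eudicots were Arabidopsis thaliana, with a leaf and a root library of tRNA-seq, and Glycine max (soybean). The grasses were Hordeum vulgare (barley), Sorghum bicolor (sorghum), Setaria italica (foxtail millet), Triticum aestivum (wheat) and Zea mays (maize). YAMAT-seq was run on the same species except G. max and S. bicolor.

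Each species had 1 library per assay. Leaf and root of A. thaliana had the same tRNA-seq value in 52 of 52 families and were used as 1 sample, so no threonine tRNA could be compared between these tissues. The depth behind the tRNA-seq percentages is not given. Ratios between families had the form of ratios of small whole numbers. ThrTGT was 46.3 times ThrCGT and 28.9375 times ThrGGT in A. thaliana, and 38.8125 times ThrCGT in G. max. The minor families of tRNA-seq may thus rest on few reads, but the number of reads behind a value cannot be read from a ratio. The YAMAT-seq libraries held 6851530 to 19833183 reads. Brackets and ranges after YAMAT-seq values give the exact 95% Clopper-Pearson interval. It accounts for counting error alone, as PCR copies of a molecule cannot be recognised here. Without replicates, differences between single libraries carry no test.

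Threonine is encoded by the codons ACT, ACC, ACA and ACG, and threonyl-tRNA synthetase joins the amino acid to the CCA end of every tRNA that reads them. In the cytosol of plants the adenosine that opens the anticodon AGT is converted to inosine, which lets this tRNA read ACC as well as ACT, while TGT pairs with ACA and CGT with ACG. Plastids translate with their own tRNAs, and their threonine tRNAs carry GGT, which pairs with ACC and by wobble with ACT, and TGT. Plant mitochondria import from the cytosol tRNAs that their own genome lacks.

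The annotation of A. thaliana (TAIR10.1) showed which genome serves which anticodon. Its nuclear chromosomes carried 24 threonine tRNA genes among 625 tRNA genes, 10 of ThrAGT, 8 of ThrTGT, 6 of ThrCGT and 0 of ThrGGT. The plastid genome carried 1 gene of ThrGGT and 1 of ThrTGT among 37, and the mitochondrial genome carried 0 among 22. In this species ThrGGT was thus annotated in the plastid alone, ThrAGT and ThrCGT in the nucleus alone, and ThrTGT in both.

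Of the 14 threonine sequences of YAMAT-seq, 8 are printed below, among them those with the most reads of each family over all libraries. They are shown because the leading forms of the grasses and of A. thaliana differ at few bases, while the plastid and nuclear forms of ThrTGT differ at many. Each is printed as deposited, 5′ to 3′, with the CCA end and with the anticodon in capitals.
Plastid ThrGGT of A. thaliana: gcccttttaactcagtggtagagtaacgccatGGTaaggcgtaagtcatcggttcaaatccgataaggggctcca
ThrGGT of the 4 grasses: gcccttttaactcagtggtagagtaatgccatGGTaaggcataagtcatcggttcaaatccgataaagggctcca
Plastid ThrTGT of A. thaliana: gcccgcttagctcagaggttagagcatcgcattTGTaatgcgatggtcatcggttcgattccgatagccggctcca
ThrTGT of the 4 grasses: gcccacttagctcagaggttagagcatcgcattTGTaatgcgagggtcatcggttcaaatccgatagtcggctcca
Nuclear ThrTGT of A. thaliana: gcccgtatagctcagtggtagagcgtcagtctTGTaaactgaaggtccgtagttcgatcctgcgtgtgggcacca
Nuclear ThrCGT of A. thaliana: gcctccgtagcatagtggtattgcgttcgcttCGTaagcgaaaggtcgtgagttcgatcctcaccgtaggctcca
ThrCGT of H. vulgare and T. aestivum: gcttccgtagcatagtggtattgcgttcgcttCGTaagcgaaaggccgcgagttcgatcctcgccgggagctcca
Nuclear ThrAGT of A. thaliana, also listed in T. aestivum: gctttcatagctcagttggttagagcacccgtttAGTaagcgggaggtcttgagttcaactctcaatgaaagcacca

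Without the CCA end, the A. thaliana ThrGGT sequence had 1 exact match in TAIR10.1, on the plus strand of the plastid genome from base 31369 to base 31440, which is the gene ArthCt098 (trnT). The leading A. thaliana ThrTGT sequence also had 1, on the minus strand from base 46213 to base 46285, which is ArthCt100. The nuclear ThrTGT sequence matched 4 genes, among them AT1G05980 (chromosome 1, 1817400 to 1817471, plus strand). The printed nuclear ThrCGT sequence matched 1 gene, AT2G03660 (chromosome 2, 1113984 to 1114055, minus strand). The ThrAGT sequence matched 5 genes, among them AT2G34950 (chromosome 2, 14743475 to 14743548, minus strand). Each of these places spans the single annotated exon of a tRNA-Thr gene on the same strand.

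The grass ThrGGT and ThrTGT sequences were each the same to the last base in the 4 grasses of YAMAT-seq (Z. mays, T. aestivum, H. vulgare and S. italica). Of the 14 different threonine sequences, only these 2 were listed in all 4 grasses, and 4 were listed in more than 1 library. The grass ThrGGT sequence stood 3 edits from the plastid tRNA of A. thaliana, 24 from the nearest nuclear tRNA and 24 from the nearest mitochondrial tRNA. The grass ThrTGT sequence stood 5, 23 and 17 edits from them in that order. The nuclear set left out nuclear tRNAs within 1 edit of a plastid or mitochondrial tRNA of A. thaliana. The nuclear distances therefore do not cover such tRNAs. No grass genome was used, so a plastid origin in the grasses rests on this likeness to A. thaliana.

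Counted from 1 at the 5′ end and with the A. thaliana base written before the position, the grass ThrGGT differed by C27T, G41A and G67A. The first 2 of these faced each other in the anticodon stem, where a C-G pair was replaced by a T-A pair. The last replaced a G-T pair of the acceptor stem by an A-T pair, so that 7 of 7 acceptor pairs were Watson-Crick pairs in the grasses against 6 in A. thaliana. The grass ThrTGT differed by G5A and C68T, which faced each other in the acceptor stem, by T44G in the variable region, and by G57A and T59A in the T loop. Its T loop thereby read ttcaaat, the same letters as in ThrGGT. The plastid ThrGGT and ThrTGT of A. thaliana were 74.0% identical, and the plastid and nuclear ThrTGT of A. thaliana were 65.8% identical.

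ThrTGT was the main threonine family of tRNA-seq. It held 16.8% of the library in S. bicolor, 9.50% in H. vulgare, 8.44% in S. italica, 6.06% in G. max, 3.08% in T. aestivum, 2.62% in Z. mays and 2.29% in A. thaliana. It ranked between 2 and 13 of the 52 families in every library. S. bicolor stood highest and A. thaliana lowest, 7.31-fold apart, and 5 species formed a series between them with no replicate to separate its neighbours. Within threonine it made up 47.7% in T. aestivum, 63.2% in H. vulgare and 81.7% to 95.7% in the other 5 species. These percentages cannot tell plastid from nuclear ThrTGT, so the part of either in a library value is not known.

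ThrCGT, the family that pairs with ACG, was scarce in the eudicots, with 0.156% in G. max and 0.0495% in A. thaliana. Among the grasses it was 0.285% in Z. mays, 1.16% in S. italica, 1.93% in S. bicolor, 3.12% in T. aestivum and 4.39% in H. vulgare. Every grass stood above either eudicot. ThrTGT was 0.986 times ThrCGT in T. aestivum, 2.17 times in H. vulgare and 7.29 to 46.3 times in the other 5 species. T. aestivum was the library in which ThrTGT did not lead threonine, but there ThrCGT, at 3.12%, and ThrTGT, at 3.08%, were nearly equal, in 1 library of unknown depth.

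ThrAGT, which has the most nuclear genes of the 4 in A. thaliana, was a minor family. It was 0.816% in H. vulgare, 0.507% in S. bicolor, 0.117% in G. max, 0.0792% in A. thaliana, 0.0651% in T. aestivum and 0.0351% in S. italica, and it was listed at 0 in Z. mays. It made up at most 5.43% of threonine. Grasses lay both at the top and at the bottom of this order.

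ThrGGT, the plastid family, was 0.319% in H. vulgare, 0.301% in Z. mays, 0.188% in T. aestivum, 0.164% in S. italica and 0.0792% in A. thaliana, and it was listed at 0 in G. max and S. bicolor. In A. thaliana it was listed at the same value as ThrAGT. Its share of threonine was highest in Z. mays, at 9.40%, and at most 3.17% in the other species. The sources used here do not give whether this tRNA was in the reference sets of those species. They do not give the depth either, so a listing at 0 sets no upper limit on ThrGGT.

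**Figure D1:**
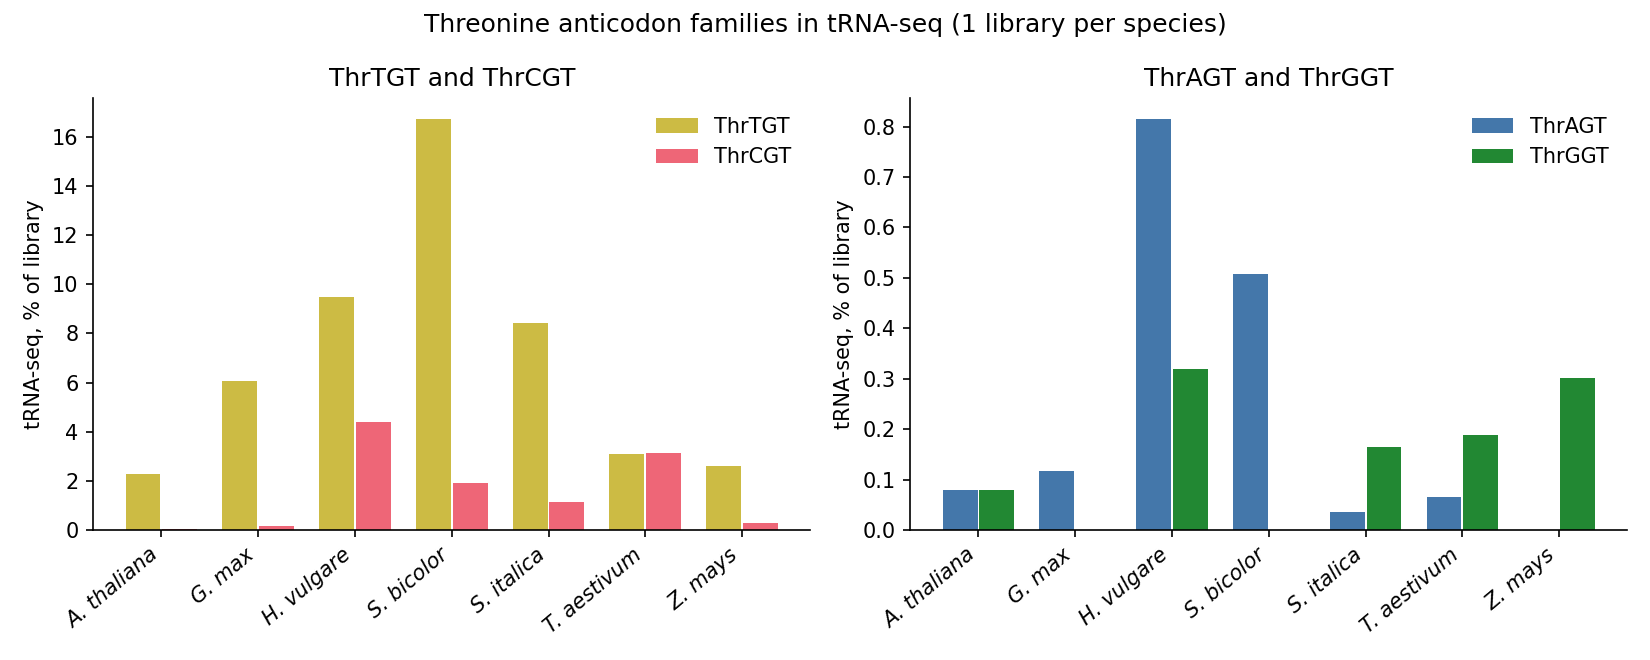
Percent of the tRNA-seq library (vertical axes, with different scales in the panels) of ThrTGT and ThrCGT, left, and of ThrAGT and ThrGGT, right, for the 7 species. Each bar is 1 library; ThrTGT reaches 16.8% in S. bicolor, while ThrAGT and ThrGGT stay below 1% in every species.

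The families together made threonine the largest of the 20 amino acids of tRNA-seq in S. bicolor, at 19.2% of the library, and in H. vulgare, at 15.0%. The sum was 9.80% in S. italica, 6.46% in T. aestivum, 6.33% in G. max, 3.21% in Z. mays and 2.50% in A. thaliana, where threonine ranked 10.

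For the question of how grasses and eudicots differ, log2(percent + 0.01) was compared between the 5 grasses and the 2 eudicots for all 52 families. The percentages of ThrCGT given above correspond to a mean log2 difference of 3.97. Its groups did not overlap. Among the 52 families, 5.77% had all grasses above both eudicots and 9.62% had all grasses below them, and ThrCGT was the 1 threonine family among these. The two-sided exact permutation test over species gave p = 0.0476, the smallest that 21 arrangements allow, and an adjusted exact p of 0.413 over the 52 families. This difference did not pass the correction, as no family did, and 6 of 52 were below 0.05 unadjusted. With a species left out it ranged from 3.23 to 4.71, with exact permutation p of 0.0667 to 0.167.

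The other threonine families overlapped between the clades. ThrTGT was 8.08% ± 5.75 (SD, n = 5) in grasses and 4.18% on average in eudicots, with a log2 difference of 0.78 and an adjusted exact permutation p of 0.707. Without A. thaliana that difference was 0.08. ThrGGT had a log2 difference of 2.11 and an adjusted exact permutation p of 0.619, and both clades held a species listed at 0. ThrAGT had a log2 difference of 0.02 and an adjusted exact permutation p of 1, and its direction was not stable. It was -0.63 with a pseudocount of 0.001, -0.24 without A. thaliana, -0.72 without H. vulgare and -0.55 without S. bicolor.

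Among families above 0 in all 7 species, those whose tRNA-seq percent ranked the species most like a threonine family were found by Spearman's rho over the 7 species. For ThrTGT these were SerCGA, with rho of 0.964, and IleAAT, with 0.929. For ThrCGT they were ArgTCT, with 0.786, and ValAAC, with 0.75. The values for ThrAGT (SerCGA at 0.714 and GlnCTG at 0.679) and for ThrGGT (GlyGCC and GlnTTG, both at 0.667) were lower, and these families have species listed at 0. The points share the fixed total of each library, and these are the highest of 33 comparisons for each family. ThrTGT and ThrCGT had a rho of 0.643 with each other, and ThrTGT and ThrGGT one of -0.126.

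Threonine has all 4 anticodons of a 4-codon box, in which the last codon base may be any base. ThrTGT, the family whose anticodon opens with T, led the threonine box in 6 of 7 tRNA-seq libraries. In the 7 other boxes (Ala, Pro, Val, Ser, Leu, Arg and Gly) such a family led in 18 of 49 pairs of box and library. Proline was the most like threonine, with ProTGG leading in 7 of 7 libraries. In valine and arginine the family that opens with A led in 6 of 7 libraries each. These counts describe the tables and were not tested.

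In YAMAT-seq threonine held a small share of the reads, nearly all of them of ThrGGT and ThrTGT. By reads it ranked 9 of 20 amino acids in Z. mays, 10 in H. vulgare, 11 in S. italica and T. aestivum, and 15 in A. thaliana. Threonine held 5606 reads in A. thaliana, or 0.0417% of the library (interval 0.0406 to 0.0428). Among the grasses Z. mays had 1358 threonine reads, H. vulgare 1127, S. italica 565 and T. aestivum 417, or between 0.00396% and 0.00863% of these libraries. Sequences nearest to a plastid tRNA held 99.0% (98.7 to 99.2) of the A. thaliana threonine reads. The share was 98.9% (98.1 to 99.4) for H. vulgare, 97.5% (95.9 to 98.6) for S. italica, 97.6% (95.6 to 98.8) for T. aestivum and 100% (99.7 to 100) for Z. mays. No threonine read was nearest to a mitochondrial tRNA.

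ThrGGT had 3663 reads in A. thaliana, or 0.0273% of the library (0.0264 to 0.0282). In the grasses it had 1114 reads in Z. mays (0.00562%), 617 in H. vulgare (0.00472%), 246 in S. italica (0.00359%) and 253 in T. aestivum (0.00241%). This order had no overlap between the intervals of neighbours. All ThrGGT reads of a library came from 1 sequence. Among the 24 A. thaliana entries that matched the plastid genome, ThrGGT ranked 15 by reads, between a MetCAT with 3707 reads and CysGCA with 3176.

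ThrTGT had 1887 reads in A. thaliana, or 0.0140% of the library (0.0134 to 0.0147). It had 305 reads in S. italica (0.00445%, interval 0.00397 to 0.00498), 498 in H. vulgare (0.00381%, 0.00349 to 0.00416), 156 in T. aestivum (0.00148%, 0.00126 to 0.00174) and 244 in Z. mays (0.00123%, 0.00108 to 0.00139). The intervals of S. italica and H. vulgare overlapped, and so did those of T. aestivum and Z. mays. The plastid sequence held 1885 of the A. thaliana reads and ranked 18 among the 24 plastid entries, and the nuclear sequence held 2. In T. aestivum the sequence shared by the grasses held 154 reads. A second T. aestivum sequence, with 2 reads, was identical to the nuclear A. thaliana genes AT1G63790 (chromosome 1, 23667485 to 23667556, minus strand) and AT3G48275 (chromosome 3, 17894411 to 17894482, plus strand).

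ThrCGT had 54 reads in A. thaliana, 14 in S. italica, 12 in H. vulgare and 6 in T. aestivum, and none was listed in Z. mays. It had the most sequence forms of the 4 families, 7 of the 14, and each was nearest to a nuclear tRNA, at 0 to 6 edits. In A. thaliana 42 reads were of the sequence printed above and 12 of a form found in 3 nuclear genes. In S. italica the leading form had 10 of the 14 reads and stood 4 edits from a nuclear A. thaliana tRNA. The T. aestivum reads were split over 3 forms with 2 reads each. In Z. mays a count of 0 allows a share of up to 1.51e-05% of the library.

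ThrAGT had 2 reads in A. thaliana and 2 in T. aestivum, of the same sequence, and none listed in the other 3 libraries. In those a count of 0 allows up to 2.3e-05% in H. vulgare, 4.38e-05% in S. italica and 1.51e-05% in Z. mays. In A. thaliana 13 of the 24 nuclear threonine genes matched a listed sequence exactly, and they shared 58 reads between 4 sequences.

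**Figure D2:**
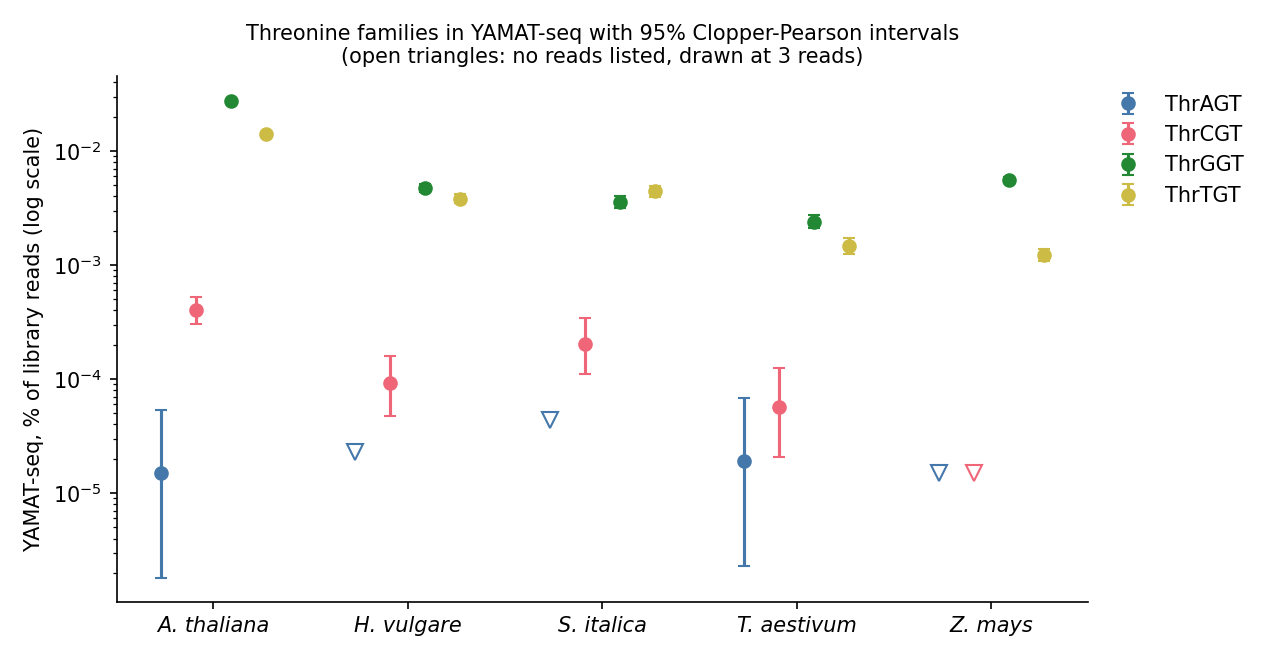
Percent of YAMAT-seq reads (vertical axis, log scale) of the 4 threonine families in the 5 species, as points with 95% Clopper-Pearson intervals; open triangles mark families with no listed reads, drawn at 3 reads. ThrGGT and ThrTGT lie above ThrCGT and ThrAGT in every species.

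The balance of ThrGGT to ThrTGT differed between the YAMAT-seq libraries. With 1 library per species, the counting intervals below cannot separate a species difference from one between libraries. There were 4.57 ThrGGT reads for each ThrTGT read in Z. mays (3.97 to 5.27), 1.94 in A. thaliana (1.84 to 2.05), 1.62 in T. aestivum (1.32 to 1.99), 1.24 in H. vulgare (1.10 to 1.40) and 0.807 in S. italica (0.679 to 0.957). S. italica was the library with more ThrTGT than ThrGGT. The interval of T. aestivum overlapped those of A. thaliana and H. vulgare, and the others did not overlap. The leading sequence of each family was the same in the 4 grasses, and the ThrTGT count of T. aestivum also includes the 2 reads of its second form.

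The comparison of the assays sets side by side the profiles of the 5 species measured in both. YAMAT-seq selects full-length tRNAs with a CCA end, but this cannot be told apart from other differences between the assays. For A. thaliana the tRNA-seq labels name seedling leaf and seedling root, while the YAMAT-seq label names the seedling. Within threonine, ThrGGT was 3.86% ± 3.16 (SD, n = 5 species) in tRNA-seq and 61.3% ± 14.2 (SD, n = 5) in YAMAT-seq, with the larger share in YAMAT-seq for each of the 5 species. ThrTGT was 74.1% ± 18.2 (SD, n = 5) in tRNA-seq and 37.4% ± 13.3 (SD, n = 5) in YAMAT-seq, and ThrCGT was 20.0% ± 18.7 (SD, n = 5) against 1.19% ± 0.895 (SD, n = 5), each lower in 5 of 5 species. ThrAGT was 1.99% ± 2.28 (SD, n = 5) against 0.103% ± 0.211 (SD, n = 5). These shares do not depend on the other amino acids.

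ThrGGT led threonine in 4 of 5 YAMAT-seq libraries and in no tRNA-seq library. The ratio of ThrGGT to ThrTGT was 0.0194 to 0.115 in tRNA-seq of these species. It was 56.2 times higher in YAMAT-seq in A. thaliana, 41.6 times in S. italica, 39.7 times in Z. mays, 36.9 times in H. vulgare and 26.6 times in T. aestivum. The ratio was thus higher in YAMAT-seq in all 5 species. The size of these folds is uncertain, as ThrGGT may rest on few reads in tRNA-seq. The tRNA-seq value of ThrTGT does not separate plastid from nuclear tRNAs, while in A. thaliana YAMAT-seq 1885 of 1887 ThrTGT reads were of the plastid sequence. Whether the tRNA-seq ratio is one between plastid tRNAs alone is therefore not known. Whether nuclear ThrTGT, fragments, ligation or reverse transcription have a part in the difference was not tested.

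**Figure D3:**
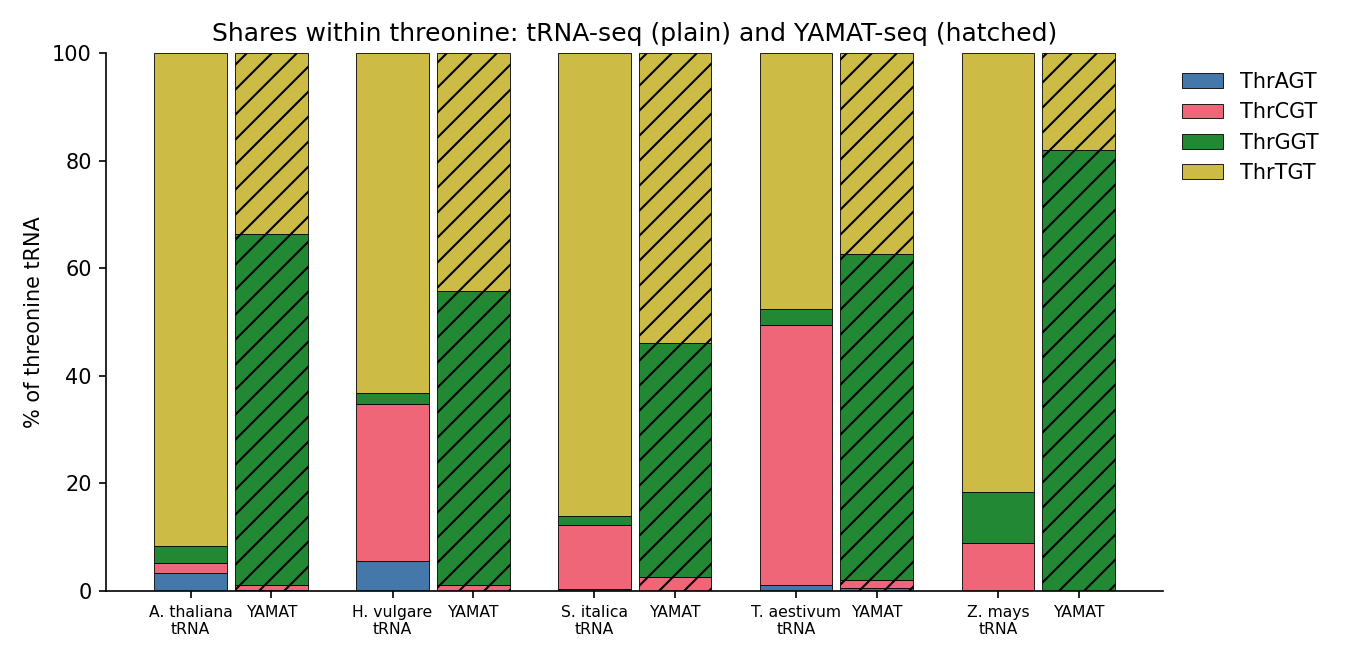
Shares of the 4 families within threonine (vertical axis, percent) in tRNA-seq (plain bars) and YAMAT-seq (hatched bars) of the 5 species with both assays. ThrGGT takes 43.5% to 82.0% of the hatched bars and 1.67% to 9.40% of the plain ones.

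As shares of the whole library all 4 families had lower means in YAMAT-seq. The mean log2 ratio of YAMAT-seq to tRNA-seq, on the scale of percent + 0.01, was -8.23 ± 1.14 (SD, n = 5) for ThrTGT, -6.26 ± 2.58 for ThrCGT, -3.55 ± 1.32 for ThrGGT and -2.92 ± 2.29 for ThrAGT. ThrTGT, ThrCGT and ThrGGT were lower in 5 of 5 species, as were 59.6% of the 52 families, so this direction is that of the background. ThrAGT was lower in 4 species and listed at 0 in both assays in Z. mays. An exact permutation of signs over the 5 species, two-sided, gave p = 0.0625 for the first 3, the smallest that 5 species allow, and an adjusted exact p of 0.102 over 52 families, and it gave an adjusted exact p of 0.155 for ThrAGT. No family of the table could pass this test, and 0 of 52 had an unadjusted p under 0.05.

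The size of these ratios rests on the pseudocount where a YAMAT-seq share lies below it. For ThrGGT the mean was -4.76 with a pseudocount of 0.001, -1.45 with 0.1, and -2.08 with GlyGCC left out of both totals. Without a pseudocount the tRNA-seq percent of ThrGGT was 2.91 times its YAMAT-seq percent in A. thaliana and 45.6 to 78.1 times in the 4 grasses. For ThrTGT it was 163 times in A. thaliana and 1896 to 2492 times in the grasses. These folds compare shares of whole libraries, so they also depend on the reads of other tRNAs. In A. thaliana YAMAT-seq the plastid GlyGCC sequence alone held 7431104 of 13439654 reads.

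In A. thaliana the shares within threonine were set beside genes and codons. Among threonine codons of 27415 nuclear coding sequences, ACT made up 33.9%, ACA 31.5%, ACC 19.6% and ACG 15.0%. In 84 plastid coding sequences ACT made up 40.2%, ACA 31.5%, ACC 17.8% and ACG 10.5%, the same order as in the nuclear ones. In mitochondrial coding sequences ACC, at 24.9%, stood just above ACA, at 24.0%, between ACT at 34.9% and ACG at 16.2%. ThrAGT, which matches the leading codon, had 41.7% of the nuclear threonine genes, 3.17% of threonine in tRNA-seq and 0.0357% in YAMAT-seq. ThrTGT had 33.3% of the nuclear genes against 91.7% and 33.7%, and ThrCGT had 25% against 1.98% and 0.963%. Of the 1887 ThrTGT reads of YAMAT-seq, 1885 were of the plastid sequence, so the 33.7% is not a share of nuclear tRNAs. ThrGGT had no nuclear gene, 3.17% in tRNA-seq and 65.3% (64.1 to 66.6) in YAMAT-seq. In the plastid genome ThrGGT and ThrTGT each had 1 gene, or 50% of its threonine genes. Codons were assigned to the anticodon that pairs with them base by base, while inosine and wobble pairing let a tRNA read further codons.

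**Figure D4:**
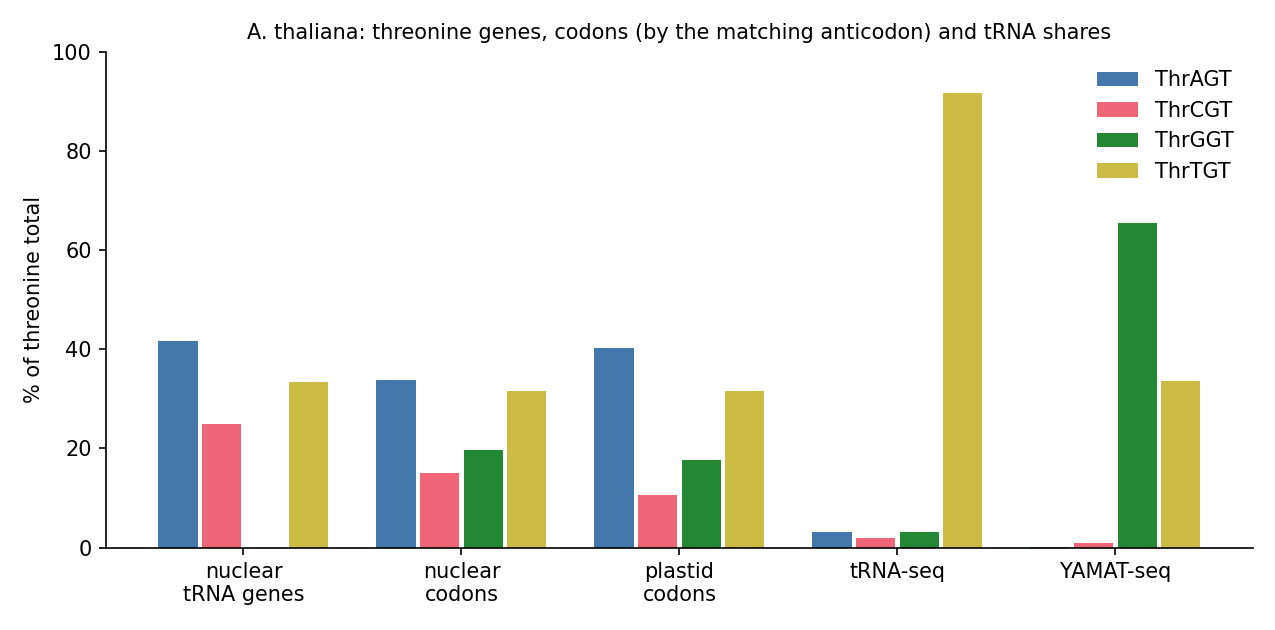
Percent of the threonine total in A. thaliana (vertical axis) for nuclear tRNA genes, nuclear and plastid codons grouped by the anticodon that pairs with them, tRNA-seq and YAMAT-seq. ThrTGT takes 91.7% of tRNA-seq and ThrGGT 65.3% of YAMAT-seq, while neither exceeds 33.3% of the nuclear genes or of the codons. The plastid tRNA genes, 1 of ThrGGT and 1 of ThrTGT, are not drawn.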

How the data were processed

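Shares of threonine tRNAs were taken from 8 tRNA-seq and 5 YAMAT-seq libraries. The authors deposited tRNA-seq values as a percent of total tRNA abundance per anticodon, per the file headers, with no depth, so these values have no interval. Their YAMAT-seq files hold, per the file headers, a raw count for each sequence, and the authors listed only sequences with reads. Cutadapt and TAIR10 are named in the submitters' processing notes. Neither the aligner nor the reference tRNAs of a species nor the handling of multiply matching reads is given in the sources used here.

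Groups came from the sample titles, with 1 library each. Tests took species as units and measure the spread between species. In the grasses the anticodon was the middle 3 bases of the 7-base loop closed by the best stem of 5 pairs, with a loop score of at least 4. Applied to A. thaliana, this returned the listed family for 141 of 143 entries, with 6 of 6 for threonine. Over all 5 libraries it left 15 sequences of 88 to 91 bases (62 reads) without an anticodon, and these stayed in the totals. Sequences were searched exactly in TAIR10.1. Where there was no exact match, edlib 1.3.9.post1 gave the edits to the A. thaliana tRNAs of each genome. Nuclear tRNAs within 1 edit of a plastid or mitochondrial tRNA were left out of the nuclear set. A genome was assigned when it stood no more than 16 edits away and 5 closer than the next. Codons were counted in the longest coding sequence of each gene. Tests were exact, with Benjamini-Hochberg adjustment over 52 families and a pseudocount of 0.01, in Python 3.11.15 with numpy 2.4.6 and scipy 1.17.1, and the functions were tested on simulated data. Intervals are 95% Clopper-Pearson intervals, and 3 reads set the limit for a count of 0.

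All 4 families were named in every library. The named sequences were those leading a family or holding at least 5% of threonine reads, and the 2 families most like each threonine family were named; the second forms of ThrTGT and ThrCGT were added after their values were seen. Members and lists were chosen with earlier results of these data known. Alternatives were other pseudocounts, totals without GlyGCC, a limit on low values, rescaled percentages, a limit of 10 reads, other edit limits, and each species left out in turn.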

Additional observations from a re-analysis of the deposited data

Results flagged for a closer look

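Among 8 sets of grass values examined (4 families in 2 assays), 1 was marked because a single value stood apart from the rest. ThrAGT was 1.90e-05% of YAMAT-seq reads in T. aestivum (interval 2.3e-06 to 6.87e-05), from 2 reads, and had no listed reads in the other 3 grasses with this assay. With 3 values at 0 any listed read would be marked, so the usual rate of about 1 in 20 sets by chance does not apply, and the mark says nothing about the size of the difference. A count of 0 allows up to 4.38e-05% in S. italica, 2.3e-05% in H. vulgare and 1.51e-05% in Z. mays. The Z. mays limit lies below the T. aestivum value, and all 3 limits lie within its interval. The sequence was identical to that of A. thaliana, which also had 2 reads.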

How the results depend on the processing

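The assay differences of the 4 families kept their direction in 39 of 39 alternatives. ThrAGT could not be tried among families with a mean over both assays of at least 0.1%. Its mean over the 5 species was 0.199% in tRNA-seq and 6.78e-06% in YAMAT-seq. The mean log2 ratio ran from -9.85 to -5.40 for ThrTGT, -9.35 to -3.33 for ThrCGT, -4.76 to -1.45 for ThrGGT and -5.43 to -1.04 for ThrAGT. Between grasses and eudicots 36 of 40 alternatives kept the direction, with 3.12 to 4.71 for ThrCGT, 0.08 to 1.48 for ThrTGT and 0.53 to 3.69 for ThrGGT. The exceptions were of ThrAGT, which was -0.63 with a pseudocount of 0.001 and ranged from -0.72 without H. vulgare to 0.87 with other species left out; the cause was not tested. The plastid share of threonine reads was the same under both other edit limits. With a limit of 10 reads the 2 reads of ThrAGT in A. thaliana and T. aestivum and the 6 of ThrCGT in T. aestivum dropped to 0%. Reading an anticodon with no lower limit on the loop score, tried after seeing the data, moved no within-threonine share out of its interval. The assay comparison was paired by species, and the labels give no replicate numbers that could pair libraries further. Low counts limit ThrAGT and ThrCGT in YAMAT-seq, and the unknown depth limits every tRNA-seq percentage.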
